A study of Rattus norvegicus with 39 samples.

Results

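Messenger RNAs of 5 potassium channel genes, Kcnj6, Kcnj12, Kcnk2, Kcnk10 and Kcnh1, were followed in polyribosome-bound RNA of the rat nucleus accumbens (NAc). The genes were taken by name, as 5 of the 23978 genes in the count table, and their identifiers were ENSRNOG00000001658, ENSRNOG00000002303, ENSRNOG00000002653, ENSRNOG00000003813 and ENSRNOG00000003841 in that order. Female Long-Evans rats heterozygous for Drd1a-iCre (D1-Cre) or Drd2-iCre (D2-Cre) carried the same Cre-dependent RiboTag virus in the NAc, which puts a hemagglutinin (HA) tag on the ribosomal protein Rpl22. Immunoprecipitation (IP) with an HA antibody from 2 mm punches therefore drew RNA from infected cells in which the Drd1a or Drd2 transgene had driven Cre. Rats in proestrus or diestrus received 6 i.p. injections of ketamine at 10 mg/kg or of saline, and tissue was taken 4 days after the last one, 30 min after a return to the test context. The ketamine rats had been chosen by the study for a rise in locomotor activity over treatment, so ketamine groups are sensitized animals and not all treated ones. Cell type, cycle stage and treatment gave 8 groups with 5 libraries each, of 1 rat per library, except D2 proestrus ketamine, which had 4 because the authors excluded a library. Each group drew on several litters, and p-values measure the spread between these rats. Comparisons of one kind share libraries with the others, so they are not independent.

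These genes encode pore-forming subunits of 3 channel families. Kcnj6 encodes GIRK2, an inward rectifier that opens when Gi/o-coupled receptors, such as D2 dopamine, GABA-B or adenosine A1 receptors, release G protein beta-gamma subunits. Kcnj12 encodes Kir2.2, a constitutively active inward rectifier of the family that holds medium spiny neurons (MSNs) near the potassium equilibrium potential between bouts of input. Kcnk2 and Kcnk10 encode TREK-1 and TREK-2, two-pore domain leak channels that respond to membrane stretch, temperature and lipids and are closed by Gs and Gq signalling. Kcnh1 encodes EAG1, a voltage-gated channel that is blocked by calcium-bound calmodulin.

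The promoter windows of the 3 genes that were called between cell types below are printed to show how unlike their start sites are in base composition. RefSeq windows of 250 bases before to 50 bases after the start site were read from the GRCr8 table of promoters, which held 4 windows for 3 of the 5 genes. The Kcnj6 window is chr11:47778299-47778598 on the minus strand. Kcnk2 has windows at chr13:103438593-103438892 and at chr13:103494637-103494936, both on the minus strand, and Kcnh1 has one at chr13:106252966-106253265 on the plus strand. Sequences run 5′ to 3′ on the strand of the gene, and capitals mark CG dinucleotides.
Kcnj6: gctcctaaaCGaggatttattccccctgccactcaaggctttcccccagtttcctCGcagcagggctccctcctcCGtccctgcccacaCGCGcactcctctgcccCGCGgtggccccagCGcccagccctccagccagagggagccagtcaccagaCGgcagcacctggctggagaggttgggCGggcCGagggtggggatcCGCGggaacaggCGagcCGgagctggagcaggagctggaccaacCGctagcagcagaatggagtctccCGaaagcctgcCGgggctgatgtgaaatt
Kcnk2, first window: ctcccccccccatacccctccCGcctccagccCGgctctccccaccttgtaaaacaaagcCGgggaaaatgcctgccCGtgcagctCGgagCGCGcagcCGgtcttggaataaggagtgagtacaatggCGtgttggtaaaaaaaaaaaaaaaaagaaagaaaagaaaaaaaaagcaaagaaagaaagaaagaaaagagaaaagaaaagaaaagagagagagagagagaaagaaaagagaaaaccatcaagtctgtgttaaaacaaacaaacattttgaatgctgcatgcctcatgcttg
Kcnk2, second window: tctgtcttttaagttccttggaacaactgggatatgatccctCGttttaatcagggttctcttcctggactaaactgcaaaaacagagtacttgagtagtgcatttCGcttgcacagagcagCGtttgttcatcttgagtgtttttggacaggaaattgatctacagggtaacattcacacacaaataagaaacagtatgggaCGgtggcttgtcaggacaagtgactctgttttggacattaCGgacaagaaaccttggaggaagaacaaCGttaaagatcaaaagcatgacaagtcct
Kcnh1: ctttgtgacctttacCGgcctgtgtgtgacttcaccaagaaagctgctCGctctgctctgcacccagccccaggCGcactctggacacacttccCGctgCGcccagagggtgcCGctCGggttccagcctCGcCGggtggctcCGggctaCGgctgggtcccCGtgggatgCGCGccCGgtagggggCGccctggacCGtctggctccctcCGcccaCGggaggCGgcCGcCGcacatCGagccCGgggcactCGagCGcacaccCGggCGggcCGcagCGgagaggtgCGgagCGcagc

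The Kcnh1 window held 32 CG dinucleotides at a GC content of 72.7%, and 8.37% of all 33469 windows in the table held as many. For Kcnj6 the values were 18 CG dinucleotides and 66.7% GC, a count reached by 27.5% of windows. The Kcnk2 windows held 9 and 6 CG dinucleotides at 44.3% and 41.7% GC, beside medians of 7 and 51.7% over all windows. Short motifs were searched on both strands. The half-site of the cAMP response element was written as TGACG, which 21.2% of all windows hold, and had no match in the 4 windows. The half-site of the estrogen response element was written as GGTCA and is held by 40.5% of all windows. It had 1 match, on the reverse strand at positions -245 to -241 of Kcnh1. The AP-1 site was searched as TGANTCA, held by 7.33% of all windows, with no match. No matches overlapped.

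Total counts ranged from 2396517 to 43224256 per library, with all but 2 libraries between 16118050 and 24784447. Adora2a, an adenosine receptor gene of D2-MSNs, lay at 452 to 1063 CPM (counts scaled to a common library total) in D2-Cre libraries and at 141 to 221 CPM in D1-Cre libraries. Its D1 and D2 libraries did not overlap. Drd1 and Drd2 were not analysed here. Library 39 (D2 diestrus saline) had the lowest depth and lay at -87.9 on principal component 2, library 32 (D2 diestrus ketamine) at 41.4 on principal component 3 with the lowest Adora2a of its cell type, and library 33 (D1 proestrus saline) had the lowest TMM factor, 0.904. Main results are therefore given with and without these 3 libraries. In IP libraries, fewer cells of a type and less RNA per cell cannot be told apart.

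Each gene was detected in all 39 libraries and passed the filter on low counts in every comparison. Levels below are CPM normalized by TMM, and since no gene lengths were used they are not compared between genes. Kcnk2 had 431 to 9836 counts per library, Kcnh1 138 to 3093, Kcnj12 89 to 1471 and Kcnj6 25 to 948. Kcnk10 was sparse, with 3 to 61 counts, and its values carry the largest counting error. The plot of levels by group shows every library.

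**Figure D1:**
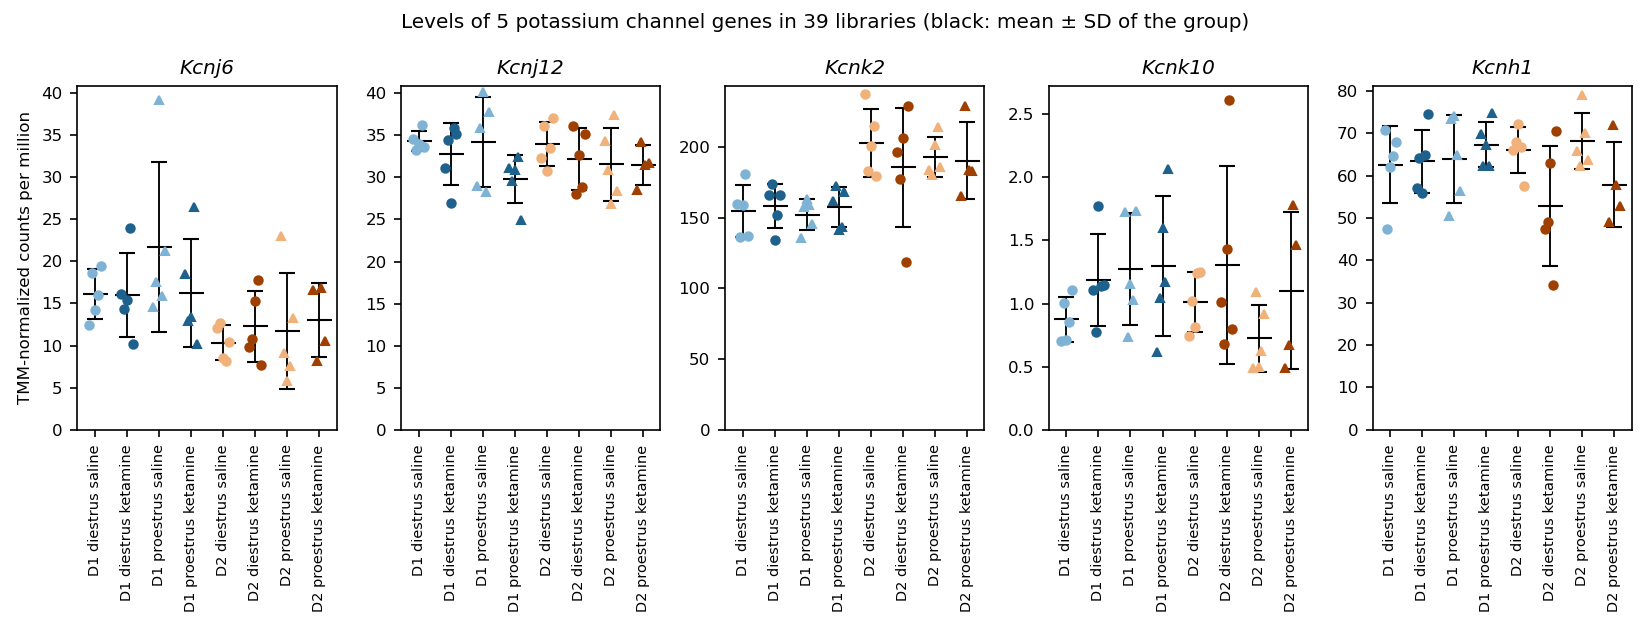
TMM-normalized CPM (linear axes from 0) of the 5 genes in each of the 39 libraries, by group. Circles are diestrus and triangles proestrus libraries, blue is D1 and orange-brown D2, light is saline and dark ketamine, and black bars give the group mean ± SD (n = 5, or 4 for D2 proestrus ketamine); mean Kcnk2 ran from 152.1 CPM in D1 proestrus saline to 202.8 CPM in D2 diestrus saline.

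Among inward rectifiers, Kcnj6 was higher in D1-Cre than in D2-Cre libraries. In D1 proestrus saline rats its values were 14.6, 15.9, 17.6, 21.3 and 39.1 CPM, and in D1 diestrus saline rats they were 12.4, 14.2, 16.1, 18.7 and 19.4 CPM. In D2 proestrus saline rats they were 5.75, 7.54, 9.12, 13.3 and 23.0 CPM, and in D2 diestrus saline rats 8.14, 8.49, 10.4, 12.1 and 12.7 CPM. Of the 10 D2 libraries 7 were below all D1 libraries, but the cell types overlapped, with library 5 (23.0 CPM, D2 proestrus) above all but 1 of the D1 libraries. Over both stages, Kcnj6 was at 18.9 ± 7.57 CPM in D1 and 11.0 ± 4.84 CPM in D2 saline libraries (mean ± SD, n = 10 each), and log2 D2 over D1 was -0.79 (SE 0.196, 95% interval -1.21 to -0.38; adjusted p = 0.00809, edgeR quasi-likelihood test with Benjamini-Hochberg adjustment over 13689 genes). This is a 1.73-fold higher level in D1 (interval 1.3 to 2.31). The call was lost when either of 2 D1 proestrus libraries was left out. Without library 1, the lowest of its group in Kcnj6, the difference was -0.58 with a larger SE of 0.295 (adjusted p = 0.328). Without library 17, the highest of all, it was -0.41 (adjusted p = 0.354). Without library 39 it was -0.45 (adjusted p = 0.0971), and without libraries 33 and 39 it was -0.42 (adjusted p = 0.187). The call was also lost in a single model of all 39 libraries (-0.44, adjusted p = 0.344).

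The same contrast in ketamine-treated rats, which share no library with the saline groups, gave the same direction for Kcnj6. Its values were 10.2, 12.9, 13.4, 18.5 and 26.5 CPM in D1 proestrus and 10.2, 14.4, 15.4, 16.1 and 24.0 CPM in D1 diestrus libraries. In D2 they were 8.21, 10.5, 16.6 and 16.9 CPM in proestrus and 7.65, 9.85, 10.7, 15.3 and 17.8 CPM in diestrus. The cell types overlapped from 10.2 to 17.8 CPM. Mean levels were 16.1 ± 5.44 CPM in D1 (n = 10) and 12.6 ± 4.00 CPM in D2 (n = 9), and the difference was -0.52 (SE 0.131, interval -0.79 to -0.24, adjusted p = 0.0116 over 13850 genes), a 1.43-fold higher level in D1. Every library could be left out without loss of this call (highest adjusted p = 0.0623), and without library 32 it was -0.54 (adjusted p = 0.0188). It did not pass without surrogate variables (-0.35, adjusted p = 0.342) or in the single model (-0.32, adjusted p = 0.40).

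Kcnj12, the constitutive rectifier, showed no difference between cell types that passed the test. It lay at 28.2 to 40.1 CPM in D1 and 26.8 to 37.4 CPM in D2 saline libraries, with means of 34.3 ± 3.62 and 32.8 ± 3.60 CPM (SD, n = 10 each). After ketamine it lay at 25.0 to 35.8 and 28.0 to 36.1 CPM. Log2 D2 over D1 was -0.08 in saline (interval -0.20 to 0.04, adjusted p = 0.323) and 0.00 in ketamine libraries (interval -0.12 to 0.12, adjusted p = 0.996). These intervals are those of the main fit. In saline libraries 8 alternative settings gave -0.15 to -0.037, and fits with 1 library left out gave -0.14 to -0.028, with no call. The highest group mean of Kcnj12 was 1.15 times its lowest, the narrowest spread of the 5 genes, against 2.09 times for Kcnj6.

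Kcnk2, the TREK-1 leak channel, was higher in D2-Cre libraries. Saline values were 136, 145, 157, 159 and 163 CPM in D1 proestrus and 136, 137, 159, 160 and 181 CPM in D1 diestrus. In D2 they were 180, 184, 185, 201 and 214 CPM in proestrus and 179, 183, 200, 215 and 237 CPM in diestrus. The highest D1 library, 27 (diestrus, 181 CPM), lay just above the 2 lowest D2 libraries, 13 and 39, and all other D1 libraries were below all D2 libraries. The means were 153.3 ± 14.4 CPM in D1 and 197.9 ± 19.2 CPM in D2 (SD, n = 10 each), and log2 D2 over D1 was 0.37 (SE 0.0485, interval 0.27 to 0.47, adjusted p = 1.52e-05), a 1.29-fold difference. It was called with any library left out, at 0.23 to 0.39, the lowest being without library 1 (adjusted p = 0.00525), and without libraries 33 and 39 (0.26, adjusted p = 0.000868). A single model of all 39 libraries gave 0.13 with an adjusted p of 0.240.

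After ketamine, Kcnk2 was also higher in D2. D1 proestrus libraries held 141, 143, 162, 168 and 172 CPM and D1 diestrus libraries 134, 152, 166, 166 and 174 CPM. D2 proestrus libraries held 166, 183, 183 and 229 CPM and D2 diestrus libraries 118, 177, 196, 207 and 229 CPM. The lowest value of all, 118 CPM, was that of library 32, and library 6 (166 CPM) was the only other D2 library not above all D1 libraries. The difference was 0.23 (SE 0.0645, interval 0.10 to 0.37, adjusted p = 0.0207), with means of 158.0 ± 14.1 CPM (n = 10) and 187.5 ± 34.1 CPM (n = 9). Without library 32 it was 0.30 (adjusted p = 0.00149). The call was lost without surrogate variables (0.25, adjusted p = 0.114) and with blocks of 8 consecutive library numbers (0.25, adjusted p = 0.104).

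Kcnk10, the TREK-2 gene, lay at 0.703 to 1.74 CPM in D1 and 0.489 to 1.2 CPM in D2 saline libraries, and at 0.617 to 2.06 and 0.488 to 2.62 CPM after ketamine. The ranges overlapped in part in saline libraries, with the lowest D2 values (0.489, 0.500 and 0.620 CPM) below every D1 library and the highest D1 values (1.73 and 1.74 CPM) above every D2 library. Log2 D2 over D1 was -0.30 (SE 0.212, adjusted p = 0.348) in saline and 0.09 (SE 0.247, adjusted p = 0.858) in ketamine libraries, with intervals of -0.74 to 0.14 and -0.42 to 0.60.

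Kcnh1, the EAG1 gene, was lower in D2 than in D1 libraries of ketamine-treated rats. Its values were 62.2, 62.4, 67.3, 69.9 and 74.9 CPM in D1 proestrus and 56.0, 57.2, 64.2, 65.0 and 74.5 CPM in D1 diestrus. In D2 they were 49.1, 52.8, 57.8 and 72.0 CPM in proestrus and 34.2, 47.3, 49.0, 62.9 and 70.5 CPM in diestrus. Of 9 D2 libraries, 5 were below all D1 libraries, and the others lay within the D1 range. The means were 65.4 ± 6.44 CPM in D1 (n = 10) and 55.1 ± 12.1 CPM in D2 (n = 9), with a difference of -0.26 (SE 0.0385, interval -0.34 to -0.18, adjusted p = 3.37e-05). Without library 32, the lowest, it was -0.21 (adjusted p = 0.00074), and the call was lost without surrogate variables (-0.24, adjusted p = 0.170) and with blocks of 8 consecutive library numbers (-0.26, adjusted p = 0.105).

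In saline libraries Kcnh1 lay close in both cell types. D1 values were 50.4, 56.4, 65.0, 73.4 and 74.0 CPM in proestrus and 47.4, 62.1, 64.7, 68.0 and 70.7 CPM in diestrus. D2 values were 62.4, 63.6, 65.9, 70.0 and 78.9 CPM in proestrus and 57.5, 66.1, 66.9, 68.0 and 72.1 CPM in diestrus. The difference was 0.08 (SE 0.0551, interval -0.03 to 0.20, adjusted p = 0.296). Whether the cell type difference itself differed between treatments was tested in one model of all libraries: the interaction was -0.13 (SE 0.0788, interval -0.29 to 0.03, unadjusted p = 0.0984, adjusted p = 1). Its 7 alternative settings gave -0.35 to -0.13 with adjusted p from 0.607 to 1, and leaving out 1 library gave -0.41 to -0.10. It was -0.41 without library 40 (unadjusted p = 0.00425, adjusted p = 0.363), -0.40 without library 22 (unadjusted p = 0.00662, adjusted p = 0.439) and -0.29 without library 11 (unadjusted p = 0.0366, adjusted p = 0.831). In that model the D2 over D1 difference of Kcnh1 was -0.22 in saline and -0.35 in ketamine libraries. A difference between saline and ketamine rats in the D1 to D2 contrast of Kcnh1 was therefore not established. For Kcnj6 and Kcnk2 the interactions were 0.12 (interval -0.55 to 0.80) and 0.03 (interval -0.13 to 0.20), both with an adjusted p of 1.

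In all, 2 of the 5 genes were called between cell types in saline libraries, 1 in each direction, and 3 in ketamine libraries, 2 of them higher in D1. Over all genes 28.9% were called in the saline comparison, 14.2% higher in D1 and 14.7% higher in D2. In the ketamine comparison 18.0% were called, 9.83% higher in D1 and 8.14% higher in D2. The libraries of the 2 cell types did not overlap for 1.64% of genes in saline and 1.34% in ketamine rats, and for none of the 5 channels. Nothing particular to the channels is read from counts out of 5. The saline background itself moved with single libraries, from 3958 called genes to 1211 without library 1, 1555 without library 17, 1916 without library 39 and 2458 without library 5. The median absolute log2 difference over all tested genes was 0.10 in saline and 0.08 in ketamine libraries, and the 5 genes spanned -0.79 to 0.37 and -0.52 to 0.23.

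**Figure D2:**
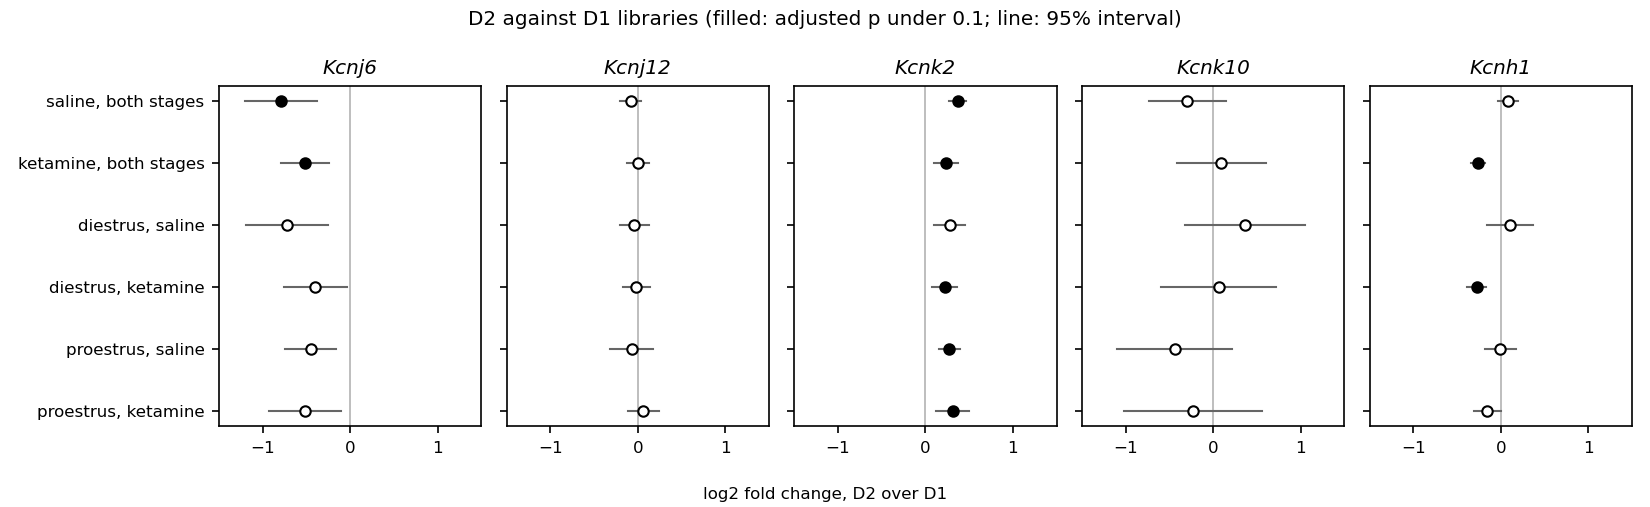
Log2 fold change of D2 over D1 libraries for the 5 genes (x axis) in 6 comparisons (rows), with lines for the 95% interval; filled circles passed an adjusted p of 0.1. Kcnj6 is left of 0 and Kcnk2 right of 0 in all 6 rows, of which the lower 4 are subsets of the upper 2, while Kcnj12 stays near 0.

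Within single stages the groups are smaller and fewer genes passed. In proestrus saline rats Kcnk2 was the 1 gene called (0.27, SE 0.0566, adjusted p = 0.0188), where 5.41% of 13283 genes were called, and its groups did not overlap, as for 6.44% of genes. Its call was lost without library 37 (0.21, adjusted p = 0.281) and in the single model of all libraries (0.07, adjusted p = 0.777). Kcnj6 had a difference of -0.45 there with an adjusted p of 0.101, at the threshold. It was called in 3 of 8 alternative settings, which gave -0.94 to -0.32 with adjusted p from 0.00647 to 0.417. It passed in 3 of 10 fits with a library left out, without library 5 (-0.94, adjusted p = 0.000446), library 9 (-0.58, adjusted p = 0.0686) or library 17 (-0.55, adjusted p = 0.0107). The smallest differences were -0.32 without library 37 (adjusted p = 0.593) and -0.32 without library 33 (adjusted p = 0.384). Kcnh1 stood at -0.01 (adjusted p = 0.981), but at -0.26 in the single model, where it was called (adjusted p = 0.0751).

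In diestrus saline rats none of the 5 genes was called by edgeR, where 4.11% of 13292 genes were. Of the 5, 2 had an unadjusted p under 0.05, as had 12.9% of genes, and DESeq2 called the same 2. Each of these was called in 6 of 8 alternative settings, with adjusted p from 0.0119 to 0.731 for Kcnj6 and from 0.000738 to 0.249 for Kcnk2. They were Kcnj6 (-0.72, SE 0.212, adjusted p = 0.123) and Kcnk2 (0.28, SE 0.0820, adjusted p = 0.119). Without the shallow library 39 both passed, Kcnj6 at -0.62 (adjusted p = 0.0241) and Kcnk2 at 0.29 (adjusted p = 0.0405). Kcnj6 also passed without library 3 (-0.83, adjusted p = 0.0490) or 15 (-0.96, adjusted p = 0.0454), and Kcnk2 without library 7 (0.25, adjusted p = 0.0362) or 27 (0.36, adjusted p = 0.0248). Each gene did not pass in the other 7 of 10 fits. The smallest difference of Kcnj6 was -0.56 without library 31 (adjusted p = 0.438), and that of Kcnk2 was 0.19 without the same library (adjusted p = 0.485). The highest adjusted p came without library 23, at 0.496 for Kcnj6 and 0.504 for Kcnk2. In the single model Kcnj6 stood at -0.31 (adjusted p = 0.731). Kcnh1 stood at 0.11 (adjusted p = 0.801).

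In proestrus ketamine rats 1 of the 5 genes was called, Kcnk2 (0.31, SE 0.0848, adjusted p = 0.0881), against 5.62% of 13339 genes. It was lost in 8 of 9 fits with a library left out (0.18 to 0.35, the lowest without library 22, adjusted p from 0.103 to 0.289) and kept only without library 6. It was also lost without surrogate variables (0.27, adjusted p = 0.218), with no filter (0.29, adjusted p = 0.234), with blocks (0.30, adjusted p = 0.283) and in the single model (0.21, adjusted p = 0.157). Kcnj6 stood at -0.51 (adjusted p = 0.212), and passed in 1 of 9 fits with a library left out, at -0.66 without library 30 (adjusted p = 0.0759). It also passed in 1 of 8 alternative settings (lowest adjusted p = 0.0489). Without library 22, the deepest one, it was -0.10 (adjusted p = 0.689), without library 38 it was -0.30 (adjusted p = 0.502), and with no filter -0.23 (adjusted p = 0.690). Kcnh1 stood at -0.16 (adjusted p = 0.324), or -0.31 without library 22 (adjusted p = 0.0115), and was called in 1 of 8 alternative settings (lowest adjusted p = 0.0237). It was -0.06 without library 6 (adjusted p = 0.71) and -0.06 without library 38 (adjusted p = 0.812).

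In diestrus ketamine rats 2 of the 5 genes were called, against 12.7% of 13358 genes. Kcnh1 was lower in D2 (-0.28, SE 0.0522, adjusted p = 0.00321), and stayed called with any library left out (highest adjusted p = 0.0606, without library 32, at -0.17). Its call was lost without surrogate variables (-0.27, adjusted p = 0.529) and with blocks (-0.29, adjusted p = 0.331). Kcnk2 was higher in D2 (0.22, SE 0.0649, adjusted p = 0.0521). It was 0.34 without library 32 (adjusted p = 0.00492), and its call was lost without library 8 (0.15, adjusted p = 0.106) or library 12 (0.27, adjusted p = 0.105). It was called in 3 of 8 alternative settings, which gave 0.11 in the single model (adjusted p = 0.412) and an adjusted p of up to 0.548, without surrogate variables. Kcnj6 stood at -0.40 (adjusted p = 0.182) and passed without library 24 (-0.59, adjusted p = 0.0793) or library 32 (-0.52, adjusted p = 0.0640), while without library 28 it was -0.25 (adjusted p = 0.509). Across these 4 comparisons, Kcnj12 ranged from -0.07 to 0.06 and Kcnk10 from -0.44 to 0.36, with no call.

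Other genes of the GIRK pathway were looked up from a list of 40 Gi/o-coupled receptors, G proteins and RGS proteins, of which 7 could be paired with an identifier. In saline libraries 5 of the 7 were called, 3 higher in D2 and 2 higher in D1, where 28.9% of all genes were called. Adora1, the A1 adenosine receptor, was higher in D2 (0.28, adjusted p = 1.97e-05), as were Rgs2 (0.34, adjusted p = 0.00543) and Rgs9 (0.24, adjusted p = 0.00179), which encode accelerators of G protein turn-off. Gnaz, the pertussis toxin-resistant Gi/o family alpha subunit, was higher in D1 (-0.28, adjusted p = 0.000127), and so was Rgs4 (-0.47, adjusted p = 0.0132).

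After ketamine 4 of the 7 were called, where 18.0% of all genes were, with Adora1 (0.11, adjusted p = 0.0777) and Rgs2 (0.24, adjusted p = 0.00751) higher in D2, Gnaz (-0.19, adjusted p = 0.000990) and Rgs4 (-0.36, adjusted p = 0.0213) higher in D1. The receptor genes Gabbr1 and Sstr2 were called in neither comparison. The median over the 7 genes was -0.03 in saline and -0.08 in ketamine libraries, against 0.00 over all genes in both. Of 100 potassium channel symbols listed, the only others paired were Dpp10, an auxiliary subunit of Kv4 channels, at -0.08 (adjusted p = 0.355) in saline and -0.00 (adjusted p = 0.979) in ketamine libraries, and Kcne1, which did not pass the filter. The nearest relatives, such as Kcnj3, Kcnj9, Kcnj4 and Kcnk4, were not analysed here.

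Markers of other cell types also differed between D1 and D2 libraries. Sst (somatostatin) and Nos1 (neuronal nitric oxide synthase), 2 of 6 listed interneuron genes, were higher in D1 in saline (-1.60 and -1.78, adjusted p = 5.34e-06 and 7.26e-07) and in ketamine libraries (-1.63 and -1.82, adjusted p = 3.67e-06 and 2.01e-05). Their summed level ranged from 269.7 to 837.4 CPM in D1 and 72.4 to 289.8 CPM in D2 saline libraries, and from 246 to 703 CPM and 88.2 to 247 CPM after ketamine. Library 17, with the highest Kcnj6, also had the highest Sst (767 CPM) and Nos1 (70.6 CPM). Among the glial and vascular markers, Gja1, Mog and Flt1 were higher in D2 in saline (0.51 to 0.82) and Gja1 and Flt1 after ketamine (0.39 and 0.69). Gfap, Aif1 and Rgs5 did not pass in either. Within D2 libraries r of Kcnk2 was -0.092 with Gja1, -0.16 with Mog and -0.13 with Flt1. These r were -0.52, -0.51 and -0.41 without the 2 libraries farthest in each marker, and 0.35, 0.23 and 0.34 over all 39 libraries. With the same 3 markers within D2 libraries, r was -0.57, -0.57 and -0.52 for Kcnj12 and -0.21, -0.15 and -0.17 for Kcnh1. It was 0.032, 0.11 and 0.21 for Kcnj6, and -0.18, -0.32 and -0.19 for Kcnk10. The summed astrocyte genes (2 of 7 listed) ranged from 29.0 to 50.8 CPM in D1 and 40.5 to 114 CPM in D2 saline libraries, and from 33.2 to 44.9 and 39.8 to 80.6 CPM after ketamine. The oligodendrocyte gene Mog ranged from 5.03 to 9.47 CPM in D1 and 6.87 to 16.2 CPM in D2 libraries after saline, and from 5.05 to 9.35 and 5.71 to 14.6 CPM after ketamine. The endothelial and mural genes (2 of 6) ranged from 3.01 to 6.32 and 3.33 to 14.9 CPM after saline, and from 2.96 to 5.66 and 4.14 to 11.0 CPM after ketamine, and Aif1, the 1 of 5 microglial genes measured, lay at 0.367 to 2.17 CPM over all libraries. Listed markers of D1 neurons, cholinergic interneurons and excitatory neurons were not analysed here. The part of these cells in the channel differences was not tested.

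Within D1 libraries, log2 CPM of Kcnj6 and Sst had a Pearson r of 0.65 (Spearman rho 0.59, n = 20), and 0.38 without the 2 libraries farthest from the median of Sst. Within D2 libraries r was 0.78 (rho 0.66, n = 19), and 0.60 without the 2 farthest. For Kcnj12, which was called in neither comparison of cell types, r with Sst in D1 libraries was 0.62 (0.48 without the 2 farthest). In D2 libraries it was 0.29 (-0.0076 without the 2 farthest). These are descriptions over libraries that share depth and dissection, and no p is given. For Kcnj6 and Nos1 the values within cell type were 0.47 in D1 and 0.34 in D2, and 0.17 and 0.05 without the 2 farthest libraries. In D1 libraries r with Nos1 was 0.52 for Kcnj12 (0.31 without the 2 farthest) and 0.66 for Kcnh1 (0.52). In D2 libraries r with Nos1 was 0.015 for Kcnj12 (-0.019) and 0.15 for Kcnh1 (0.18). Kcnk2 moved with Adora2a inside each cell type, with r of 0.68 in D1 libraries (0.77 without the 2 farthest in Adora2a) and 0.88 in D2 libraries (0.67 without the 2 farthest, which include library 32). For Kcnh1 and Adora2a r was 0.44 in D1 and 0.77 in D2 libraries (0.56 and 0.42 without the 2 farthest). Kcnk10 ran the other way, with r of -0.73 in D1 and -0.53 in D2 libraries (-0.63 and -0.24 without the 2 farthest). The part of D2-MSN RNA content in the channel differences was not tested.

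**Figure D3:**
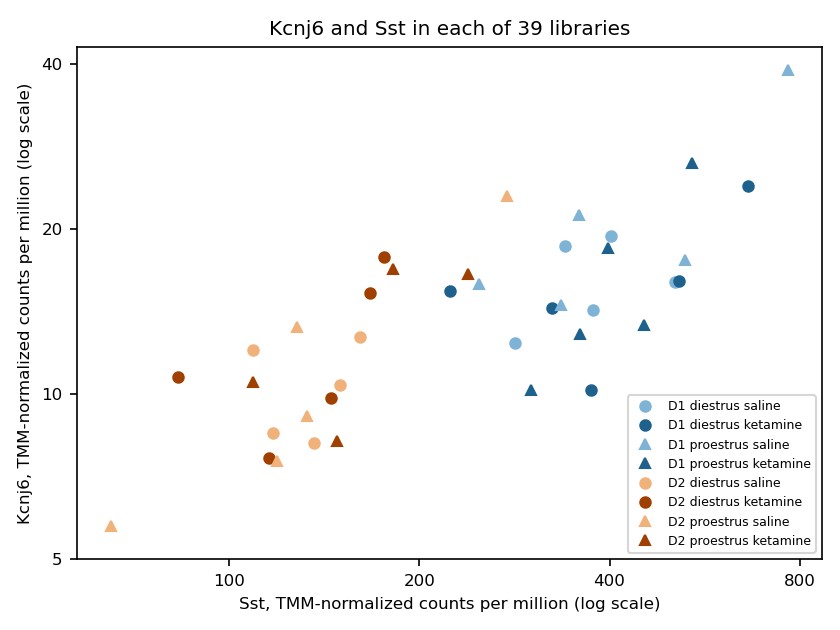
Kcnj6 (y axis) against Sst (x axis), both in TMM-normalized CPM on log scales, with 1 point per library and symbols as in the legend. Library 17 (D1 proestrus saline) is at the upper right with 39.1 CPM of Kcnj6 and 767 CPM of Sst.

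Likeness over the 39 libraries was measured as Pearson r of log2 CPM. It covered only the 1593 genes with a symbol, while 14129 genes passed the filter. Among these 1593, the genes closest to Kcnj6 were Sidt1 (0.90), Rgs4 (0.90) and Fstl1 (0.87). Within D1 libraries these r were 0.92, 0.88 and 0.86, and within D2 libraries 0.82, 0.86 and 0.79. Kcnh1 was closest to Adcy5, the main striatal adenylyl cyclase (0.90), Grm4 (0.88) and Pou3f4 (0.87), again with high r within D1 (0.78 to 0.83) and D2 libraries (0.89 to 0.96). Kcnk2 was closest to Rgs9 (0.81), Fig4 (0.80) and Mmd (0.80). Of these, Rgs9 kept its r in D1 libraries (0.76), while Fig4 and Mmd were at 0.27 and 0.42 there. The closest genes were Cd47 (0.68), Atp2b1 (0.59) and Adcy3 (0.55) for Kcnj12, and Mid1ip1 (0.70), Mrnip (0.67) and Mcf2 (0.67) for Kcnk10. These genes were chosen for their r, so no test is attached.

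Among the 5 genes themselves, Kcnk2 and Kcnh1 ran together within D2 libraries (r = 0.81, n = 19, or 0.68 without the 2 libraries farthest in Kcnh1) and within D1 libraries (r = 0.53, n = 20, or 0.30 without 2 libraries). Kcnj6 ran opposite to Kcnk2 in D2 (r = -0.54) and, more weakly, in D1 libraries (r = -0.25). Library 32, low in Kcnk2 and Kcnh1, was the highest D2 diestrus library in Kcnj6 (17.8 CPM) and Kcnk10 (2.62 CPM).

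Whether ketamine changed the channels was asked within each cell type and stage. None of the 20 tests (5 genes in 4 comparisons) was called by edgeR, with adjusted p from 0.834 to 1, and DESeq2 called 0 as well. An unadjusted p under 0.05 was found in 3 of 20 with edgeR and 2 of 20 with DESeq2. Over all genes, edgeR called 0.00759% in D1 proestrus, 0.0227% in D1 diestrus and 0% in both D2 comparisons, and 5.80%, 2.66%, 3.40% and 2.63% had an unadjusted p under 0.05 in D1 proestrus, D1 diestrus, D2 proestrus and D2 diestrus. The 3 values were Kcnj6 in D1 proestrus (-0.31, SE 0.126, unadjusted p = 0.0336), Kcnj6 in D2 proestrus (-0.28, SE 0.123, unadjusted p = 0.0439) and Kcnh1 in D2 diestrus (-0.21, SE 0.0747, unadjusted p = 0.0148). In D1 proestrus, Kcnj6 was -0.17 without library 34 (unadjusted p = 0.208), -0.19 without library 33 (unadjusted p = 0.0329) and -0.28 without library 17 (unadjusted p = 0.254). In D2 proestrus it was -0.03 without library 5 (unadjusted p = 0.856) and -0.0046 without library 22 (unadjusted p = 0.970). In D2 proestrus, mean Kcnj6 was higher after ketamine (13.1 ± 4.36 CPM, n = 4) than after saline (11.7 ± 6.88 CPM, n = 5), and the fit without surrogate variables gave 0.15, so its direction depended on the model. In D2 diestrus, mean Kcnh1 was 66.1 ± 5.36 CPM after saline and 52.8 ± 14.2 CPM after ketamine (SD, n = 5 each), a gap smaller than the SD of single ketamine libraries. That SD is not the error of the difference, for which the fit gave an SE of 0.0747 in log2 units. Kcnh1 there was -0.16 without library 15 (unadjusted p = 0.0755) and -0.32 without library 40 (unadjusted p = 0.0373).

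The 95% intervals show what these comparisons could have missed. For Kcnk2 the 4 ketamine differences lay between -0.00 and 0.08, with intervals inside -0.17 to 0.24 in fits with all libraries. In D2 proestrus Kcnk2 stood at 0.16 without library 6 (edgeR unadjusted p = 0.0117) and at -0.077 without library 22 (unadjusted p = 0.262). For Kcnj12 the intervals stayed inside -0.34 to 0.26, and for Kcnh1 inside -0.37 to 0.28. In D2 proestrus Kcnh1 moved from -0.098 to -0.28 without library 22 (edgeR unadjusted p = 0.00595, adjusted p = 0.414). The intervals were wider for Kcnj6 (-0.58 to 0.53) and widest for Kcnk10 (-0.73 to 1.00), whose largest difference was 0.45 in D1 diestrus (0.27 without library 20 and 0.58 without library 27).

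**Figure D4:**
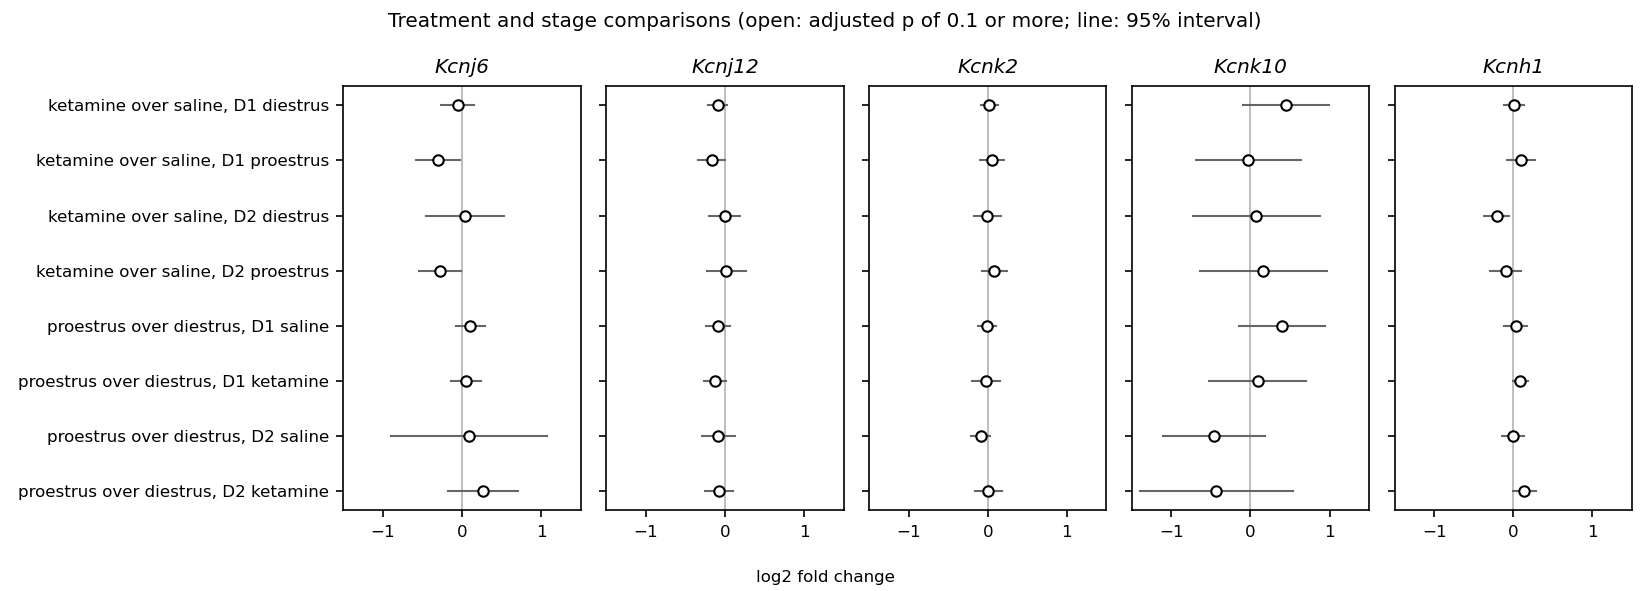
Log2 fold change (x axis) of ketamine over saline and of proestrus over diestrus for the 5 genes, with lines for the 95% interval; all circles are open because none passed an adjusted p of 0.1. Intervals are narrow for Kcnk2 and Kcnj12 and wide for Kcnk10.

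Cycle stage was compared within each cell type and treatment, with 0 of 20 tests called by edgeR, 0 at an unadjusted p under 0.05 and 0 called by DESeq2. The share of all genes at that unadjusted level is not given here, so nothing is read from that count. Over all genes edgeR called 0% in each of the 4 comparisons, and DESeq2 called 2 genes in D1 saline, 2 in D1 ketamine, 0 in D2 saline and 4 in D2 ketamine libraries. Differences of proestrus over diestrus ranged from -0.46 to 0.40, both ends held by Kcnk10, which stood at 0.40 in D1 saline (SE 0.256) and -0.46 in D2 saline libraries (SE 0.300). Kcnk2 ranged from -0.09 to 0.01 and Kcnj12 from -0.12 to -0.07. In the model of all libraries, the interaction of cell type with stage was -0.66 for Kcnk10 (SE 0.297, interval -1.26 to -0.06, unadjusted p = 0.0328, adjusted p = 1), the 1 of 20 interaction tests with an unadjusted p under 0.05, against 3.32% of all genes in that contrast. No interaction was called by edgeR or DESeq2, and 0% of 14129 genes were called by edgeR in each of the 4.

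The 8 group means are given in order as a description, with no test of the steps between neighbours. For each gene, each of the 7 gaps between neighbouring means was smaller than the larger SD of single libraries in the pair, and the step of Kcnk2 from D2 to D1 groups was 27.0 CPM beside an SD of 42.0 CPM in D2 diestrus ketamine, which holds library 32. Kcnj6 means ran from 21.7 ± 10.1 CPM in D1 proestrus saline to 10.4 ± 2.06 CPM in D2 diestrus saline, with all 4 D1 groups above all 4 D2 groups. Kcnk2 means ran from 202.8 ± 23.8 CPM in D2 diestrus saline to 152.1 ± 11.2 CPM in D1 proestrus saline, with all 4 D2 groups above all 4 D1 groups. Kcnh1 means ran from 68.2 ± 6.68 CPM in D2 proestrus saline to 52.8 ± 14.2 CPM in D2 diestrus ketamine, so both ends were D2 groups. For Kcnk10 the ends were D2 diestrus ketamine (1.31 ± 0.785 CPM) and D2 proestrus saline (0.724 ± 0.269 CPM). For Kcnj12 they were D1 diestrus saline (34.3 ± 1.18 CPM) and D1 proestrus ketamine (29.8 ± 2.87 CPM).

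The cell type differences of Kcnj6, Kcnk2 and Kcnh1 were compared across ways of fitting. The sign of Kcnj6 and Kcnk2 was the same in all 8 alternatives in both saline and ketamine libraries, and the call held in 6 of 8 for Kcnj6 in each, and in 7 and 6 of 8 for Kcnk2. Kcnh1 in saline libraries moved from 0.08 to -0.22 (adjusted p = 0.0204) in the single model of all libraries, where its sign was opposite to the other fits with all saline libraries. Its ketamine difference ranged from -0.35 to -0.21 and was called in 6 of 8.

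**Figure D5:**
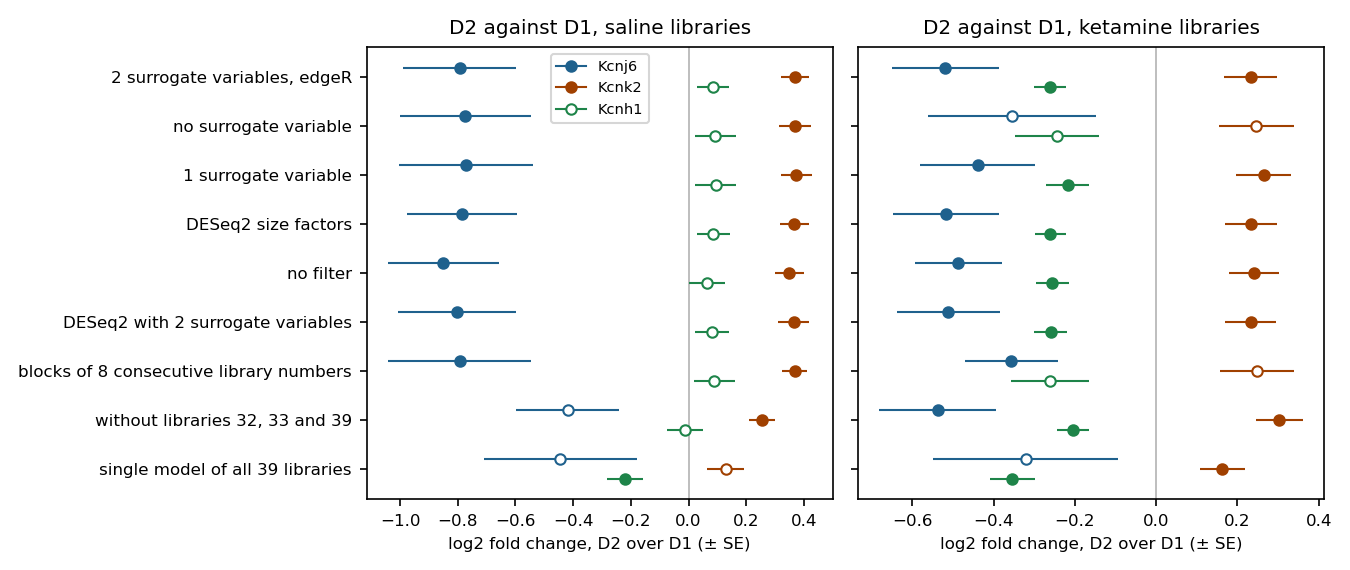
Log2 fold change of D2 over D1 (± SE) for Kcnj6 (blue), Kcnk2 (brown) and Kcnh1 (green) in saline (left) and ketamine (right) libraries under 9 ways of fitting (rows); filled circles passed an adjusted p of 0.1. Kcnj6 lies left of 0 and Kcnk2 right of 0 in every row.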

How the data were processed

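Polyribosome-bound RNA from 39 rats was sequenced on one flow cell, and the input libraries were not used here. The deposited values are expected counts per gene, which the authors estimated with Salmon and rounded to whole numbers. The submitters' processing notes name fastp 0.23.4, FastQC 0.12.1, Salmon 1.10.2, DESeq2 1.42.1 and the build mRatBN 7.2. Because effective lengths were not used, levels are scaled to library totals and not to gene length. Depth was 2396517 to 43224256 counts per library, which limits Kcnk10 most.

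Counts were tested with edgeR 4.0.16 (limma 3.58.1, sva 3.50.0, R 4.3.3): filterByExpr with a minimum count of 10 by group, TMM normalization, 2 surrogate variables estimated by svaseq, the robust quasi-likelihood test, and Benjamini-Hochberg adjustment over all tested genes, with genes called at an adjusted p under 0.1. The study's design of cell type with cycle stage as a term, or of dose within stage, was kept, and surrogate variables were set at 2 because their number was not given in the sources used here. Standard errors were derived from the F statistic, and intervals are 95%. Levels are CPM over TMM-adjusted library sizes, and correlations and likeness used log2 CPM with a prior count of 2. DESeq2 1.42.0 was one of the alternatives, with its size factors, no filter, other numbers of surrogate variables, blocks of 8 consecutive library numbers, a single model of all libraries, a threshold of 0.05, and each library left out in turn. Steps were tested on simulated data. Figures were drawn with matplotlib 3.10.9 in Python 3.11.15.

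The channel genes and the gene lists were chosen with earlier results of these data known. Of 23978 identifiers, gene tables of the study named 1966, of which 1965 were also in the RefSeq table, so that 7 of 100 listed potassium channel symbols were paired. Besides the 5 channels, genes were named as the check of cell type, as list members past the threshold between cell types, as close relatives, or as the 3 genes with the highest r to each channel. Gene names below the threshold were added as list members that did not pass. A further listed marker gene is not reported here. No pair of libraries held identical values.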

Additional observations from a re-analysis of the deposited data

How the results depend on the processing

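The 5 channel genes gave 29 results that were refitted under the other settings. Of 228 refits, not counting those with 1 library left out, 168 kept the direction and the side of the threshold. Another 20 newly passed, 21 no longer passed and 19 turned direction, and the cause was not tested. Some of the 168 repeated the main fit, because proestrus ketamine and D2 proestrus comparisons do not hold libraries 32, 33 or 39. Between cell types in saline libraries, 2 genes, Kcnj6 and Kcnk2, were called. In the single model of all 39 libraries neither passed (-0.44, adjusted p = 0.344, and 0.13, adjusted p = 0.240) and 1 other gene did, Kcnh1 (-0.22, adjusted p = 0.0204). The count was 1 without libraries 32, 33 and 39 (an alternative chosen after seeing the data), and 1 to 2 with 1 library left out. In ketamine libraries 3 were called, against 0 without surrogate variables and 1 with blocks of 8 consecutive library numbers. Of all 13850 genes tested there, 2490 were called in the main fit, 1732 without surrogate variables and 2010 with blocks. Within stage and treatment 4 of 20 tests were called, against 2 at a threshold of 0.05, 9 with DESeq2 and 7 without libraries 32, 33 and 39. Over all genes DESeq2 called 898, 647, 841 and 1809 in proestrus saline, diestrus saline, proestrus ketamine and diestrus ketamine libraries, against 718, 546, 749 and 1703 with edgeR. In the ketamine, stage and interaction comparisons 0 channel genes were called under every setting run, with 1 library left out as well.

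Directions turned for differences that had not been called, and Kcnh1 in saline libraries passed after its turn in the single model. In saline libraries Kcnk10 went from -0.30 to 0.049 without libraries 32, 33 and 39 and to 0.29 in the single model (-0.43 to 0.15 with 1 library left out), and Kcnh1 from 0.08 to -0.012 and -0.22 (-0.050 to 0.13). In ketamine libraries Kcnk10 went from 0.09 to -0.043 without surrogate variables, -0.10 with 1, -0.16 with blocks and -0.14 without libraries 32, 33 and 39 (-0.14 to 0.17), and Kcnj12 ranged from -0.025 to 0.031 with 1 library left out. Kcnh1 went from -0.01 in proestrus saline libraries to 0.088 without surrogate variables, 0.11 with 1, 0.013 with no filter and 0.098 with blocks (-0.12 to 0.070), and without a turn to -0.26 in the single model, where it passed (adjusted p = 0.0751), and from 0.11 in diestrus saline libraries to -0.18 in the single model. Kcnj6 in D2 proestrus after ketamine went from -0.28 to 0.15, 0.10 and 0.20 without surrogate variables, with 1 and with blocks. The interactions of cell type with treatment went from 0.03 to -0.12, -0.13 and -0.13 in the same settings for Kcnk2 (-0.18 to 0.074 with 1 library left out) and from -0.055 to 0.63 for Kcnj6 with 1 library left out.

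Counts of called genes over the whole table also moved. In saline libraries 3958 became 1866 in the single model and 1641 without libraries 32, 33 and 39. In proestrus saline libraries 718 became 1362 with 1 surrogate variable, 440 at a threshold of 0.05 and 422 without library 33. In proestrus ketamine libraries 749 became 447 without surrogate variables and 394 with blocks, and in diestrus ketamine libraries 1703 became 611 and 671. In diestrus saline libraries 546 became 1076 without surrogate variables, 1254 with 1, 1348 with blocks, 855 in the single model, 365 at a threshold of 0.05 and 926 without library 39. Each run of 8 consecutive library numbers held 1 library of each of the 8 groups, apart from the D2 proestrus ketamine library that the authors excluded. The sources used here do not say that such a run shared a litter, day or preparation, so the main fits assumed no pairing. The fits with these runs as blocks are the values given above. Kcnk10 had 3 to 61 counts per library.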
